A study of Homo sapiens with 16 samples.

Results

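The replication-dependent histone genes were taken as every probe whose gene symbol starts with H2AC, H2BC, H3C or H4C followed by a digit or is H1-1 to H1-5, the current names of genes once called HIST1H to HIST4H. The rule found 78 probes of 47323 on the array, for 68 genes. Of these, 24 probes for 21 genes were detected, which means a detection p-value under 0.01 on 2 or more of the 16 arrays. The array was hybridised with RNA of MM1.S, 1 human multiple myeloma cell line, grown in log phase and given 1 uM dexamethasone, a synthetic glucocorticoid, for 4 or 0 h. At each time the RNA came from 3 pools of polysome fractions (A, B and C) and from unfractionated cells (total RNA), with 2 arrays in each of the 8 groups. The labels do not say which gradient fractions went into which pool. Nothing in the labels says that the 2 arrays of a group came from separate cultures, so the p-values measure only the spread between these samples, which may be technical.

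Replication-dependent histones are the core histones H2A, H2B, H3 and H4 and the linker histone H1 that package newly copied DNA, and their genes lie in clusters and are expressed mainly in S phase. Most of their mRNAs carry no poly(A) tail and end in a stem-loop bound by SLBP, which serves their processing, translation and decay, and some of the genes can also give polyadenylated mRNA. Replacement histones are made throughout the cell cycle from ordinary polyadenylated mRNAs. The RNA was labelled with an Ambion amplification kit, a kind of kit that primes cDNA from the poly(A) tail, although the labels do not give the primer. The part of the labelling in what was detected was not tested.

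Between 26.1% and 31.3% of all probes were detected on an array, and the 2 arrays of a group correlated at 0.966 to 0.991 across kept probes. The 8 plasma cell markers were detected on all 16 arrays, with mean log2 intensities of 7.49 to 13.87, while 0 of 3 T cell, 0 of 3 fibroblast and 0 of 2 B cell markers with a probe were kept. Of 3 monocyte markers only FCGR3A was kept, at a mean of 5.44. The columns carry a prefix N or X of unstated meaning, which names the arrays here. TSC22D3, a glucocorticoid target, stood at 12.56 to 14.08 on the 4 h N arrays, 12.77 to 14.25 on the 4 h X arrays, 10.11 to 10.52 on the 0 h N arrays and 11.81 to 12.82 on the 0 h X arrays. The 0 h X arrays thus lay above the 0 h N arrays in this gene and overlapped with the lower end of the 4 h arrays, and counts are also given without those 4 arrays.

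The filter kept 24 of 78 member probes, against 17269 of 47323 probes in all. By family it kept 1 of 5 H1 probes, 5 of 19 H2A probes, 9 of 23 H2B probes, 3 of 16 H3 probes and 6 of 15 H4 probes. Of the other 54 member probes, 51 were detected on 0 arrays and 3 on 1 array (H1-1, H4C11 and a probe of H3C13). On chromosome 1, 9 of 13 member genes had a kept probe, against 12 of 54 on chromosome 6, which holds the main cluster, and 0 of 1 on chromosome 12. Of the genes with more than 1 RefSeq transcript 6 of 7 were kept, against 15 of 61 with a single one. Kept members had mean log2 intensities of 5.22 to 14.32 with a median of 6.17, and those not kept 4.49 to 5.25 with a median of 4.72. Just inside the filter were H2BC4, at 5.22, and H4C8, at 5.23, each detected on 2 pool B arrays, and just outside it the 3 probes detected once.

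More members were detected in pool B than elsewhere. The number of the 78 probes detected per array was 16, 17, 15 and 15 in pool A, 18, 23, 19 and 22 in pool B, 10 to 15 in pool C and 10 to 16 in total RNA, taking the 4 h arrays N and X before the 0 h arrays N and X. In this count the pool B arrays did not overlap with those of the other kinds of RNA. Of all probes on the array, 26.1% to 27.7% were detected in pool A and 26.5% to 28.7% in pool B. In pool C it was 28.6% to 30.8% and in total RNA 27.8% to 31.3%. Of the 24 kept probes 20 were detected on at least 1 array of pool A, 23 of pool B, 16 of pool C and 19 of total RNA. A member that entered the fit only through pool A or only through pool B had to be high there. The counts below are therefore also given with all 78 probes in the fit.

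**Figure D1:**
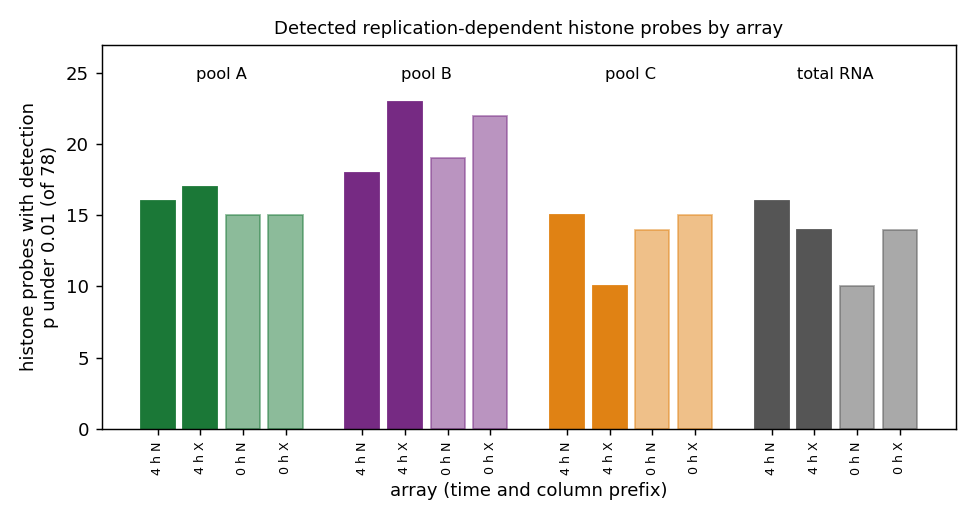
Number of the 78 replication-dependent histone probes with a detection p-value under 0.01 on each array (vertical axis), for pools A, B and C and total RNA, with the 4 h arrays in dark and the 0 h arrays in light bars, and N and X naming the 2 arrays of a group. The 4 pool B bars stand at 18 to 23, above the 10 to 17 of all other arrays.

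Levels are log2 intensities after background correction and quantile normalization, and a difference is therefore relative to the other probes on the array. H4C3, an H4 gene, had by far the brightest member probe, at a mean of 14.32, rank 118 of 17269 kept probes. It read 13.55, 14.20, 14.51 and 14.41 in pool A, 14.35, 14.25, 14.27 and 14.23 in pool B, 14.42, 13.96, 14.37 and 14.48 in pool C and 14.61, 14.43, 14.50 and 14.55 in total RNA. It differed between the kinds of RNA by -0.35 ± 0.16 in pool A (adjusted p = 0.0780), -0.24 ± 0.16 in pool B (adjusted p = 0.226) and -0.21 ± 0.16 in pool C (adjusted p = 0.324) against total RNA in limma's test, and was called in 0 comparisons. The next brightest, a probe of the H2B gene H2BC12, averaged 9.35 at rank 4122, and 14 of the 24 member probes were at rank 11026 or dimmer. Levels of different probes are not compared further, since a probe's brightness also depends on its own sequence.

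Most detected members were higher in pool A than in total RNA, among them all 5 H2A probes. In limma's test across all 17269 kept probes, 15 of the 24 members were higher and 0 lower at an adjusted p under 0.05, against 26.4% of all kept probes higher and 33.4% lower (59.8% either way). The median member difference was 0.85, against -0.10 over all kept probes. Besides the H2A probes 6 of 9 H2B probes, 1 of 3 H3 probes, 2 of 6 H4 probes and the H1-2 probe rose. Arrays report the RNA of many cells together, so a difference in all cells and one in a part of them cannot be told apart. With all 78 probes in the fit 12 rose and 0 fell, without the 4 untreated X arrays 12 rose, and under median scaling 9 rose and 0 fell.

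H2AC20, an H2A gene of the chromosome 1 cluster, had the smallest standard error of the members. It read 8.85, 9.41, 8.99 and 9.19 in pool A and 7.36, 7.34, 7.17 and 7.21 in total RNA. The groups did not overlap, and the difference was 1.84 ± 0.15 (standard error, 4 arrays each), or 3.58-fold (adjusted p = 5.93e-07). H2AC25, an H2A gene from a smaller cluster elsewhere on chromosome 1, read 7.79, 8.18, 7.37 and 8.13 in pool A and 5.56, 6.73, 5.56 and 5.77 in total RNA, with the highest total RNA array below the lowest pool A array. It rose by 1.96 ± 0.25 (3.89-fold, adjusted p = 2.45e-05). The brighter probe of H2AC18 read 7.64, 8.73, 7.60 and 8.26 in pool A and 6.05, 6.46, 5.84 and 6.07 in total RNA, without overlap, and rose by 1.95 ± 0.25 (adjusted p = 2.22e-05). Its dimmer probe rose by 1.71 ± 0.19, and H2AC19 by 1.48 ± 0.20, in both cases with no overlap. The promoters of H2AC18 and H2AC19 are copies of each other, identical at 299 of 299 aligned bases, and the files do not hold the probe sequences, so which of the copies each of these 3 probes reads was not tested.

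Among the H2B genes, H2BC9 read 7.56, 7.94, 7.91 and 6.99 in pool A and 6.19, 5.68, 6.0 and 5.82 in total RNA and rose by 1.68 ± 0.21 (adjusted p = 1.85e-05). H2BC21 read 6.58, 7.32, 6.76 and 6.63 in pool A, where it was detected on all 4 arrays, and 4.85, 5.33, 5.29 and 5.83 in total RNA, where it was detected on 1. It rose by 1.5 ± 0.20 (adjusted p = 2.56e-05), and pool A and total RNA did not overlap for either gene. H2BC21 passed the filter only through pool A, so its higher level there was fixed by the filter and is a description. The brighter H2BC12 probe rose by 1.27 ± 0.26 and H2BC5's brighter probe by 0.93 ± 0.22, the second with overlapping arrays. H3C6, an H3 gene, rose by 1.33 ± 0.25, H4C12 by 1.11 ± 0.22 and the linker histone gene H1-2 by 0.72 ± 0.20 (adjusted p = 0.00766), each without overlap. Under median scaling H1-2 stood at -0.17 (adjusted p = 0.538), the brighter H2BC12 probe at 0.32 (adjusted p = 0.333) and H4C12 at 0.49 (adjusted p = 0.0515), so that none of the 3 was called. With the untreated X arrays left out H1-2 stood at 0.72 (adjusted p = 0.052). The calls of H2BC4, H2BC14 and H4C15 depended on single arrays, and under median scaling they stood at 0.39, 0.55 and 0.33, with adjusted p-values of 0.0596, 0.0693 and 0.359. H2BC4 was not well above background on any pool A or total RNA array, so no fold is given. H2BC14 was detected on 2 pool A arrays and 0 total RNA arrays, at least 1.09-fold higher. H2BC4 was no longer called without array 0 h pool A N, 0 h total RNA X, 4 h pool A N, 4 h pool A X or 4 h total RNA N, at 0.32 to 0.43 (adjusted p = 0.0747 to 0.160), nor without the 4 untreated X arrays (adjusted p = 0.150). H2BC14 was no longer called without array 0 h pool A N, 0 h total RNA N, 4 h pool A X, 4 h total RNA N or 4 h total RNA X, at 0.54 to 0.81 (adjusted p = 0.0608 to 0.141). H4C15 was no longer called without array 0 h pool A X, 0 h total RNA N, 4 h pool A N or 4 h total RNA X, at 0.62 to 0.80 (adjusted p = 0.0779 to 0.110), nor without the 4 untreated X arrays (adjusted p = 0.0818).

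**Figure D2:**
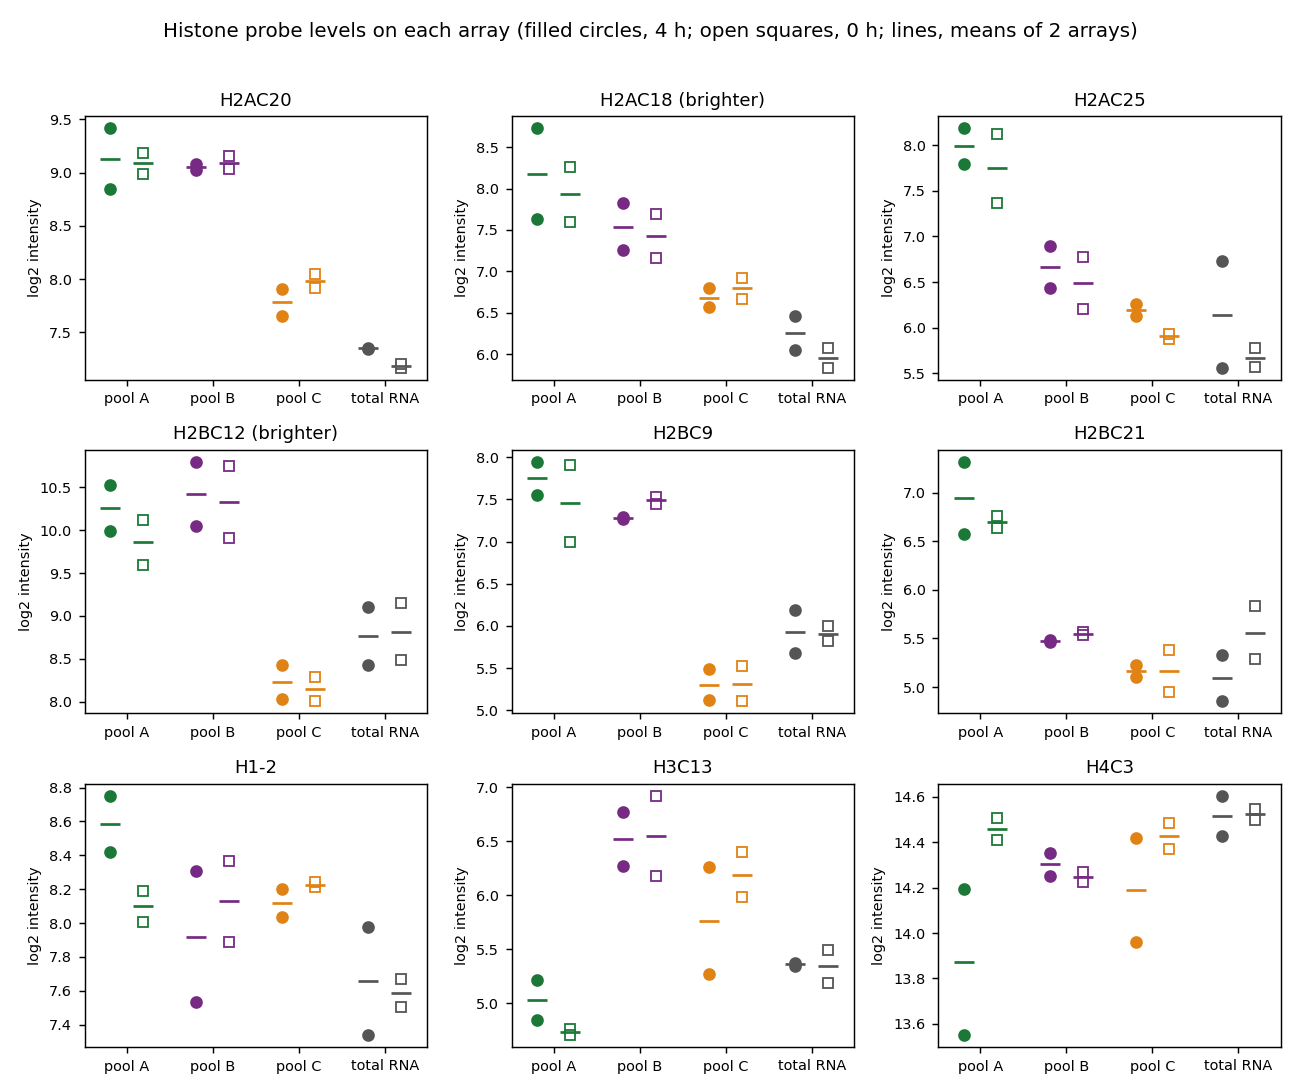
Log2 intensity (vertical axes, each with its own range) of 9 member probes on every array, in pools A, B and C and total RNA, with filled circles for 4 h, open squares for 0 h and lines for the mean of 2 arrays. H2AC20 lies at 8.85 to 9.41 in pool A and 7.17 to 7.36 in total RNA, H2BC9 at 5.11 to 5.53 in pool C, and H4C3 at 13.55 to 14.61 over all arrays.

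The promoter windows of some of the members that rose in pool A are shown for their sequence features, which not all families share. Sequences are from RefSeq on GRCh38.p14, give the 110 bases before the gene's start on the gene's strand, and carry in capitals the TATA box (TATAAA), the octamer of H2B genes (ATTTGCAT) and the CCAAT box, each also as its reverse complement.
H2AC18, chr1:149842751-149842860, minus strand: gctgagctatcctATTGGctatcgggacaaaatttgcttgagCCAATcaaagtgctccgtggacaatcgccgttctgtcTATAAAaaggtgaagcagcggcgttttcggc
H2AC25, chr1:228457874-228457983, minus strand: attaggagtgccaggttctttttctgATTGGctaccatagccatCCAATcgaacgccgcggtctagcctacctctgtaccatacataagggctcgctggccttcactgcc
H2BC12, chr6:27146859-27146968, minus strand: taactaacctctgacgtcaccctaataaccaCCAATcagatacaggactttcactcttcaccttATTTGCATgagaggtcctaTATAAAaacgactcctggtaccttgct
H2BC9, chr6:26251504-26251613, plus strand: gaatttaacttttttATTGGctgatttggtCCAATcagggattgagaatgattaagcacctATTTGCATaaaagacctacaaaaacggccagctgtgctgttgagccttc
H4C12, chr6:27831561-27831670, minus strand: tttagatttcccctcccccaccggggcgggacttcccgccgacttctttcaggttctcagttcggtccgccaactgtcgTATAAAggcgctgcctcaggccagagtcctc
H2BC21 and H2AC20 start back to back, and the 235 bases between them, chr1:149886683-149886917 on the plus strand, hold both promoters, with H2BC21 read leftward and H2AC20 rightward.
H2BC21 to H2AC20: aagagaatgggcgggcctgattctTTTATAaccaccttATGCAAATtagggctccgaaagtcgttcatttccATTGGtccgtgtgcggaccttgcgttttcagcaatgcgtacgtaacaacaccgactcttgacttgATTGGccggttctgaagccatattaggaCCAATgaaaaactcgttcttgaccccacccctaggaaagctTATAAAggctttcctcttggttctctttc

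Motifs were counted in the 250 bases before the start, on both strands, in the 63 of 68 member genes with a listed promoter. TATAAA was found in 66.7% of them, against 11.1% of 27305 promoters of all genes, ATTTGCAT in 41.3%, against 1.66%, and CCAAT in 84.1%, against 33%. The H1 box, AAACACA, was found in 7.94%, against 4.95%, namely in 5 of 5 H1 genes. The octamer, though named for H2B genes, lay in 14 of 18 H2B and 11 of 16 H2A promoters of all members. Among the 20 kept genes with a promoter, it lay in 6 of 7 H2B genes and 1 of 4 H2A genes. An octamer between genes that start back to back can count for both. The H2A gene with a match was H2AC20, which had none in the 110 bases before its start. Its match lies in the 235 bases shared with H2BC21, at -46 from the H2BC21 start. How many of the 11 H2A matches are shared in this way was not counted. CCAAT lay in 0 of 5 kept H4 genes and in all other 15. Over the kept genes TATAAA was in 60%, ATTTGCAT in 35%, CCAAT in 75% and AAACACA in 5%. By family TATAAA was in 0 of 1 kept H1, 3 of 4 H2A, 5 of 7 H2B, 3 of 3 H3 and 1 of 5 H4 genes. The H4 gene with it was H4C12, whose window is shown above. A match is a run of letters and not a shown binding site.

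Most members were also higher in pool B than in total RNA, with the largest difference at an H2B gene, H2BC12. Of the 24 members 18 were higher and 0 lower, against 25.4% of all kept probes higher and 29.2% lower (54.6% either way), and the median difference was 1.18, against -0.03 over all kept probes. All 5 H2A probes rose, 7 of 9 H2B probes, 2 of 3 H3 probes and 4 of 6 H4 probes, while H1-2 stood at 0.40 ± 0.20 (adjusted p = 0.110) and at -0.14 under median scaling. Under median scaling 17 rose and 0 fell, with all 78 probes in the fit 19 rose and 0 fell, and without the 4 untreated X arrays 16 rose. Among the 15 members detected on 8 or more arrays, 11 rose.

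The dimmer H2BC12 probe read 8.45, 9.0, 8.53 and 8.72 in pool B and 6.11, 6.61, 6.51 and 5.93 in total RNA. The groups were far apart, and the difference of 2.38 ± 0.38, or 5.21-fold, was the largest of any member against total RNA (adjusted p = 0.000152). The brighter H2BC12 probe read 10.05, 10.80, 9.91 and 10.75 in pool B and 8.43, 9.11, 8.48 and 9.15 in total RNA and rose by 1.58 ± 0.26 (3.00-fold). H2AC20 rose by 1.80 ± 0.15 (3.49-fold, adjusted p = 1.74e-06), H2AC19 by 1.70 ± 0.20 and H2BC9 by 1.46 ± 0.21, none with overlapping arrays. Both kept H2BC5 probes rose, by 1.49 ± 0.22 and 1.55 ± 0.24, and H4C12 rose by 1.26 ± 0.22. The remaining H2BC5 probe was detected on 0 arrays.

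The 1 kept probe of H3C13, an H3 gene of the chromosome 1 cluster, read 6.77, 6.27, 6.18 and 6.92 in pool B and 5.35, 5.37, 5.19 and 5.50 in total RNA. It was detected on all 4 pool B arrays and on 0 total RNA arrays, so that the fitted difference of 1.18 ± 0.24 (adjusted p = 0.000874) stands for a level at least 1.85-fold higher. The other 2 probes of H3C13 were detected on 1 and 0 of the 16 arrays, with pool B arrays at 5.07, 5.10, 4.98 and 5.36 and 5.79, 4.79, 5.07 and 4.95, so the values of this gene come from 1 of its 3 probes. A further 4 members were also detected on 0 total RNA arrays and had bounds, of at least 1.41-fold for H2BC14, 1.40-fold for H4C5, 1.22-fold for H2BC4 and 1.12-fold for H4C8. H4C5, H2BC4 and H4C8 were detected in pool B alone and passed the filter only through it, so their higher level there was fixed by the filter and is a description. Of the other called members, H4C14 rose by 0.86 ± 0.18 and H3C7 by 0.93 ± 0.25 without overlap. H2AC25 rose by 0.67 ± 0.25 (adjusted p = 0.0402) with overlapping arrays and stood at 0.32 (adjusted p = 0.315) under median scaling. H2AC25 was no longer called without array 0 h pool B X, 0 h total RNA N, 0 h total RNA X, 4 h pool B X or 4 h total RNA N, at 0.38 to 0.72 (adjusted p = 0.0630 to 0.205), nor without the 4 untreated X arrays (adjusted p = 0.172). With the untreated X arrays left out H4C5 stood at 0.90 (adjusted p = 0.0522). H4C15, H3C6, H2BC21, H2BC18 and H4C3 did not pass, at differences of -0.24 to 0.44.

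Few members differed between pool C and total RNA. Of the 24 members 3 were higher and 1 lower, against 22.2% of all kept probes higher and 21.6% lower (43.9% either way), with a median difference of 0.05, against 0.06 over all kept probes. H2AC20 read 7.91, 7.65, 8.04 and 7.91 in pool C and 7.36, 7.34, 7.17 and 7.21 in total RNA, without overlap, and rose by 0.61 ± 0.15 (adjusted p = 0.00523). H1-2 rose by 0.55 ± 0.20 (adjusted p = 0.0415), and H3C13, with 3 pool C arrays and 0 total RNA arrays detected, was at least 1.25-fold higher (adjusted p = 0.0460). The H3C13 groups overlapped, with the 4 h pool C X array at 5.27 and total RNA at 5.19 to 5.50. H2BC9 read 5.49, 5.12, 5.53 and 5.11 in pool C, where it was detected on 0 arrays, and 6.19, 5.68, 6.0 and 5.82 in total RNA, where it was detected on all 4, and was at least 1.20-fold lower (adjusted p = 0.0315). H1-2 was no longer called without array 0 h pool C N, 0 h pool C X, 0 h total RNA N, 0 h total RNA X, 4 h pool C N, 4 h pool C X or 4 h total RNA N, at 0.39 to 0.59 (adjusted p = 0.0653 to 0.179), nor without the 4 untreated X arrays (adjusted p = 0.127). H3C13 was no longer called without array 0 h pool C N, 0 h total RNA N, 0 h total RNA X, 4 h pool C N, 4 h total RNA N or 4 h total RNA X, at 0.38 to 0.70 (adjusted p = 0.0614 to 0.208), nor without the 4 untreated X arrays (adjusted p = 0.0599). H2BC9 was no longer called without array 0 h pool C X, 0 h total RNA N, 0 h total RNA X, 4 h pool C X or 4 h total RNA N, at -0.65 to -0.48 (adjusted p = 0.0546 to 0.129), nor without the 4 untreated X arrays (adjusted p = 0.0847). The count of 4 was 1 without the 4 untreated X arrays, 1 in the 0 h arrays, 0 in the 4 h arrays and 7 under median scaling.

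**Figure D3:**
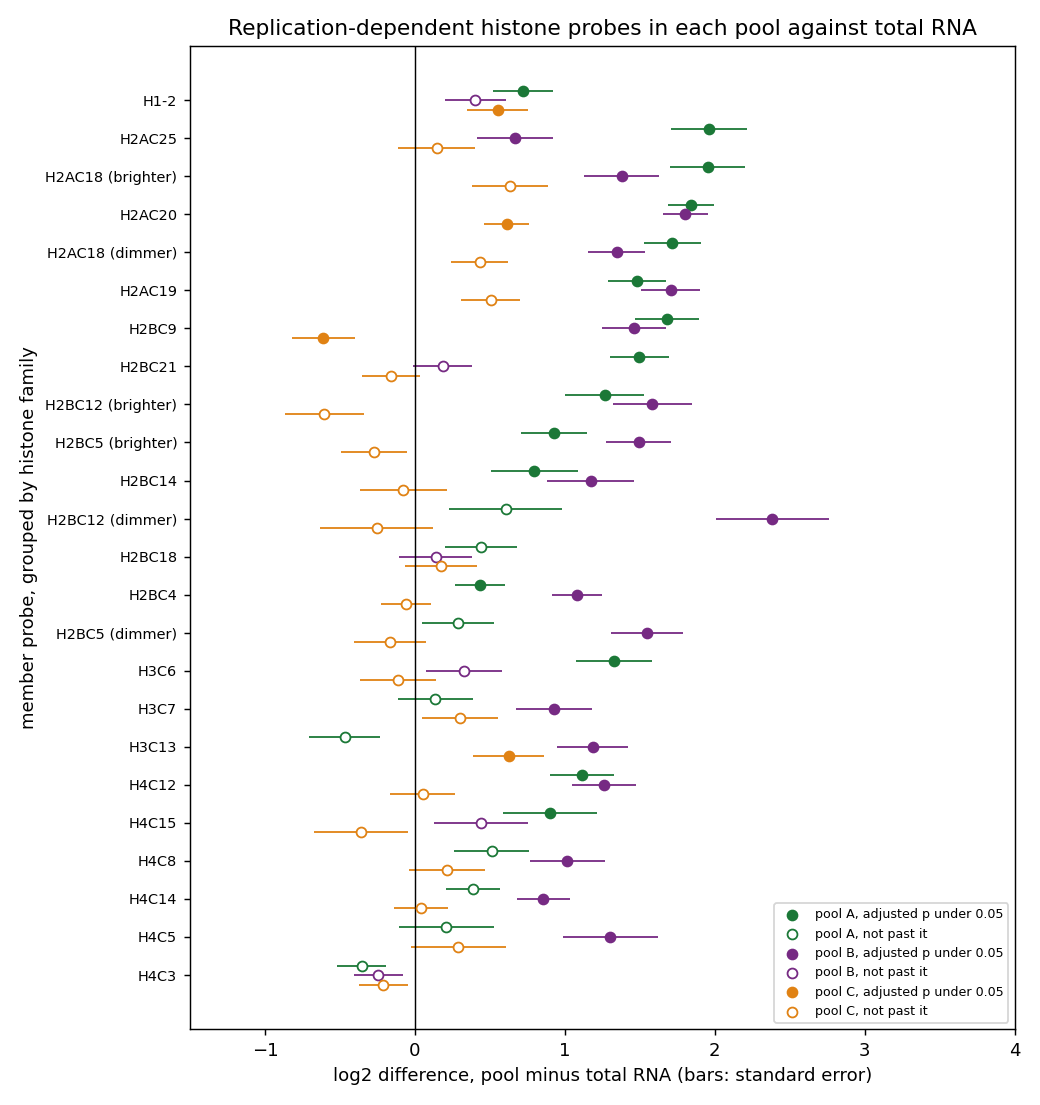
Log2 difference between each pool and total RNA (horizontal axis, bars of 1 standard error from limma) for the 24 kept histone probes in order of family, with filled circles for an adjusted p under 0.05. Pool A and pool B points lie right of 0 for 22 and 23 of the 24 probes and pool C points lie around 0, while under median scaling H1-2 lies left of 0 in pools A and B and H3C7 and the dimmer H2BC12 probe in pool A.

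The pools were then set against each other. By mean level, 13 members were highest in pool B, 10 in pool A, 1 (H4C3) in total RNA and 0 in pool C, and 12 were lowest in total RNA and 10 in pool C. The same places were not counted over all kept probes, so these counts are a description. For H2BC21 in pool A, and for H4C5, H2BC4 and H4C8 in pool B, the high place was fixed by the filter. Between pools B and A, 6 members were higher and 3 lower in pool B, against 22% of all kept probes higher and 18.6% lower (40.6% either way).

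The members lower in pool B than in pool A were H2BC21, H2AC25 and H3C6. H2BC21 read 5.48, 5.46, 5.56 and 5.54 in pool B, where it was detected on 0 arrays, and 6.58, 7.32, 6.76 and 6.63 in pool A, at least 1.98-fold lower (fitted difference -1.31 ± 0.20, adjusted p = 0.000167). This gene passed the filter only through pool A, so its direction here was fixed by the filter and is a description. H2AC25 read 6.43, 6.89, 6.20 and 6.77 in pool B and 7.79, 8.18, 7.37 and 8.13 in pool A and fell by 1.29 ± 0.25 (adjusted p = 0.00128). H3C6 read 5.65, 5.80, 6.39 and 6.43 in pool B and 6.70, 7.28, 6.66 and 7.65 in pool A and fell by 1.0 ± 0.25 (adjusted p = 0.00659), again without overlap, and stood at -0.76 (adjusted p = 0.0751) when the untreated X arrays were left out. H2AC20, whose start lies 235 bases from that of H2BC21, stood at -0.04 ± 0.15 (adjusted p = 0.864), with a 95% confidence interval of -0.36 to 0.29, and at 0.35 (adjusted p = 0.0983) under median scaling. Since the direction of H2BC21 was fixed by the filter, no contrast is drawn within this divergent pair. The difference between H2BC21 and H2AC20 was not tested.

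The members higher in pool B than in pool A were H3C13, the dimmer probes of H2BC12 and H2BC5, H4C5, H3C7 and H2BC4. H3C13 read 6.77, 6.27, 6.18 and 6.92 in pool B and 5.21, 4.85, 4.76 and 4.71 in pool A, where it was detected on 0 arrays, and was at least 1.48-fold higher (adjusted p = 0.000121). The dimmer H2BC12 probe read 5.51, 7.36, 6.64 and 8.07 in pool A, the widest range of any member there, and rose by 1.78 ± 0.38 in pool B (adjusted p = 0.00212). The brighter H2BC12 probe differed by 0.32 ± 0.26 (adjusted p = 0.366), so the 2 probes of this gene disagreed. The dimmer H2BC5 probe rose by 1.26 ± 0.24 (adjusted p = 0.00102) and the brighter one stood at 0.56 ± 0.22 (adjusted p = 0.0549). H4C5 was at least 1.12-fold higher, H3C7 rose by 0.79 ± 0.25 (adjusted p = 0.0226), and H2BC4, detected on 2 pool B arrays and 0 pool A arrays, has no fold that can be bounded above 1. The direction of H4C5 and H2BC4 was fixed by the filter here too. H4C5 was no longer called without array 0 h pool B X, 4 h pool A N or 4 h pool B N, at 0.70 to 0.93 (adjusted p = 0.0572 to 0.0611), nor without the 4 untreated X arrays (adjusted p = 0.169). H3C7 was no longer called without array 0 h pool A X, 0 h pool B N, 4 h pool A X or 4 h pool B N, at 0.54 to 0.76 (adjusted p = 0.0588 to 0.0929), nor without the 4 untreated X arrays (adjusted p = 0.146).

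**Figure D4:**
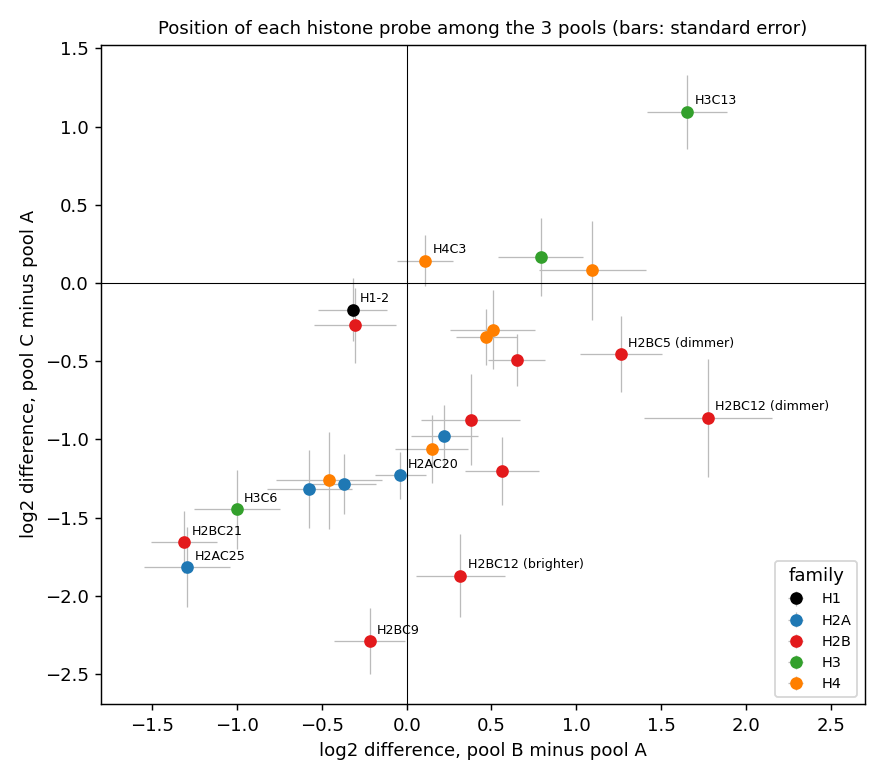
Log2 difference of pool C from pool A (vertical axis) against that of pool B from pool A (horizontal axis), with bars of 1 standard error, for the 24 kept histone probes coloured by family. Both axes share the pool A arrays, so the slope of the points is not a result. H2BC21 and H2AC25 lie at the lower left, H2BC9 at the bottom, H3C13 at the upper right and the bright H4C3 near 0.

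Most members were lower in pool C than in pools A and B. Against pool A, 14 members were lower and 1 higher, against 28.7% of all kept probes lower and 38.3% higher (67% either way), and the median was -0.92, against 0.16. All 5 H2A probes fell, 6 of 9 H2B probes, 1 of 3 H3 probes and 2 of 6 H4 probes. H2BC9 read 5.49, 5.12, 5.53 and 5.11 in pool C and 7.56, 7.94, 7.91 and 6.99 in pool A and was at least 3.86-fold lower (fitted difference -2.29 ± 0.21, adjusted p = 6.28e-07). H2BC21 was at least 2.25-fold lower and the brighter H2BC5 probe at least 1.42-fold, both with 0 pool C arrays detected. For H2BC21, which passed the filter only through pool A, the direction was fixed by the filter. The brighter H2BC12 probe fell by 1.87 ± 0.26, H2AC25 by 1.82 ± 0.25, H3C6 by 1.45 ± 0.25 and H4C12 by 1.06 ± 0.22, each without overlap. H2AC20 fell by 1.23 ± 0.15 and H2AC19 by 0.98 ± 0.20, but under median scaling they stood at 0.01 (adjusted p = 0.96) and 0.18 (adjusted p = 0.398). The calls of the brighter H2BC12 probe, at -0.60 (adjusted p = 0.0639), of H4C12, at -0.35 (adjusted p = 0.143), and of the 2 H2AC18 probes, at -0.33 and -0.38, were also lost under median scaling. H3C13 was the 1 member higher in pool C, at least 1.01-fold (adjusted p = 0.00106). H2BC14 was no longer called without array 0 h pool A N, 0 h pool C N or 4 h pool A X, at -0.80 to -0.62 (adjusted p = 0.0556 to 0.0828). H2BC4 was no longer called without array 0 h pool A N or 0 h pool C X, at -0.46 to -0.44 (adjusted p = 0.0544 to 0.0561), nor without the 4 untreated X arrays (adjusted p = 0.0591). Under median scaling 8 members were lower and 2 higher, while the median of all kept probes moved to 0.88.

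Against pool B, 17 members were lower in pool C and 0 higher, against 26% of all kept probes lower and 30.3% higher (56.4% either way), and the median was -0.87, against 0.05. The dimmer H2BC12 probe read 6.08, 6.26, 5.62 and 6.18 in pool C and 8.45, 9.0, 8.53 and 8.72 in pool B and fell by 2.64 ± 0.38 (adjusted p = 5.52e-05), and the brighter one fell by 2.19 ± 0.26. The groups were separate for both probes. H2BC9 was at least 3.32-fold lower, and the 2 H2BC5 probes at least 2.10-fold and 2.19-fold. H2AC20 fell by 1.19 ± 0.15, H2AC19 by 1.20 ± 0.20, H4C12 by 1.21 ± 0.22 and H4C14 by 0.82 ± 0.18. Under median scaling 11 members were lower and 1 higher, and the calls of H2AC20, at -0.34 (adjusted p = 0.078), H2AC19, at -0.38 (adjusted p = 0.0944), both H2AC18 probes, at -0.11 and -0.34, H3C7, at -0.26, and H4C15, at -0.46, were lost. For H4C5, H2BC4 and H4C8, detected in pool B alone, the direction was fixed by the filter. H1-2 stood at 0.15 ± 0.20 (adjusted p = 0.561). The calls of 5 members depended on single arrays. H3C7 was no longer called without array 0 h pool B N, 0 h pool B X, 0 h pool C N, 4 h pool B N, 4 h pool B X or 4 h pool C X, at -0.70 to -0.40 (adjusted p = 0.0581 to 0.213). H4C15 was no longer called without array 0 h pool B X, 0 h pool C N, 0 h pool C X, 4 h pool B X or 4 h pool C X, at -0.87 to -0.52 (adjusted p = 0.0630 to 0.186), nor without the 4 untreated X arrays (adjusted p = 0.330). H4C5 was no longer called without array 0 h pool B X, 4 h pool B N or 4 h pool C X, at -0.81 to -0.62 (adjusted p = 0.0653 to 0.0715), nor without the 4 untreated X arrays (adjusted p = 0.150). H4C8 was no longer called without array 0 h pool B X or 0 h pool C N, at -0.70 to -0.46 (adjusted p = 0.0587 to 0.0601). The brighter H2AC18 probe was no longer called without array 0 h pool B X, 0 h pool C X, 4 h pool B X or 4 h pool C X, at -0.69 to -0.60 (adjusted p = 0.0667 to 0.0866), nor without the 4 untreated X arrays (adjusted p = 0.181). The count of 17 was 9 in the 0 h arrays and 15 in the 4 h arrays.

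Another scaling of the arrays shifted these differences as a whole. With each array set to its median, the median of all kept probes against total RNA was -0.58 in pool A, -0.31 in pool B and 0.26 in pool C, and that of the members 0.42, 0.92 and 0.12. Read against the median of all kept probes, 24 of 24 members lay above it in pool A and in pool B and 8 in pool C, where the quantile scaling gave 22, 23 and 11.

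The comparisons of pools A, B and C with total RNA share the total RNA arrays, and those between pools share pool arrays, so their counts are not independent. Of the called members, 13 of 15 in pool A, 13 of 18 in pool B and 2 of 4 in pool C against total RNA were detected on at least 1 array of each side. Between pools this held for 5 of 9 called members for pools B and A, 9 of 15 for pools C and A, where H2BC4 was detected in neither, and 10 of 17 for pools C and B. With all 78 probes in the fit 1 member was called in pool C against total RNA, 9 between pools B and A, 16 between pools C and A and 16 between pools C and B. Without the 4 untreated X arrays the counts between pools were 6, 14 and 14 in the same order.

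Dexamethasone for 4 h changed no member past the threshold in any kind of RNA. In limma's test 0 of 24 members passed in total RNA, in each pool, and averaged over the 4 kinds of RNA, against 0.0579% of all kept probes in total RNA, 0.492% in pool A, 0.0521% in pool B, 0.0579% in pool C and 2.45% in the average. At an unadjusted p under 0.05 stood 3 of 24 members in pool A and 0 in the others. Of all 17269 kept probes, 2123 stood there in pool A and 682 in total RNA. In pool B it was 1071, in pool C 922 and in the average 2357. The member count in pool A was thus close to the share of all kept probes. In total RNA member differences ran from -0.47 to 0.54 with a median of 0.05, against 0.00 over all kept probes. The average over the 4 kinds gave -0.32 to 0.29, and its 95% confidence intervals all lay between -0.71 and 0.71, so that a change of 1 log2 unit lay outside the interval of each of the 24 members. Within a single kind of RNA, with 2 arrays a side, this held for 15 of 24 members in total RNA, 10 in pool A, 15 in pool B and 15 in pool C. The intervals of the average take the arrays of the 4 kinds of RNA as independent. If those of a time shared cultures, which was not tested, the intervals of the average may be too narrow. The 0 h side of all these intervals includes the untreated X arrays, whose TSC22D3 levels overlapped with the 4 h arrays. The intervals therefore bound the difference between these arrays, which may be smaller than that from clean untreated cells. Intervals without the untreated X arrays were not computed, and without them the counts also stayed at 0.

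The 3 members with the smallest p in pool A were 2 probes of H2BC5 and H4C3. The brighter H2BC5 probe read 6.75 and 6.63 at 4 h and 5.40 and 5.85 at 0 h, a difference of 1.07 ± 0.31 (adjusted p = 0.161). The dimmer one read 4.74 and 5.36 at 4 h and 5.86 and 6.13 at 0 h, a difference of -0.94 ± 0.34 (adjusted p = 0.274). The 2 probes of the same gene thus stood on opposite sides of 0. H4C3 read 13.55 and 14.20 at 4 h and 14.51 and 14.41 at 0 h, a difference of -0.58 ± 0.23 (adjusted p = 0.322).

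In the other kinds of RNA the smallest p-values belonged to other members. They were H2BC21 at -0.47 ± 0.28, H2BC18 at 0.54 ± 0.34 and H3C7 at 0.54 ± 0.35 in total RNA, H3C6 at -0.68 ± 0.36, H2BC4 at -0.39 ± 0.24 and H4C12 at -0.35 ± 0.30 in pool B, and H4C14 at -0.42 ± 0.25, H3C13 at -0.43 ± 0.33 and H2BC14 at -0.46 ± 0.41 in pool C, with smallest adjusted p-values of 0.9999, 0.866 and 1.0. Averaged over the 4 kinds, H3C6 stood at -0.32 ± 0.18, H4C3 at -0.19 ± 0.12 and H2AC25 at 0.29 ± 0.18 (smallest adjusted p = 0.475). The response in pools minus that in total RNA passed for 0 members and 0 of all kept probes, and 0 members had an unadjusted p under 0.05. Between any 2 kinds of RNA the responses differed for 0 members in the same test, over 6 pairs, with 0 to 2 members a pair at an unadjusted p under 0.05.

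**Figure D5:**
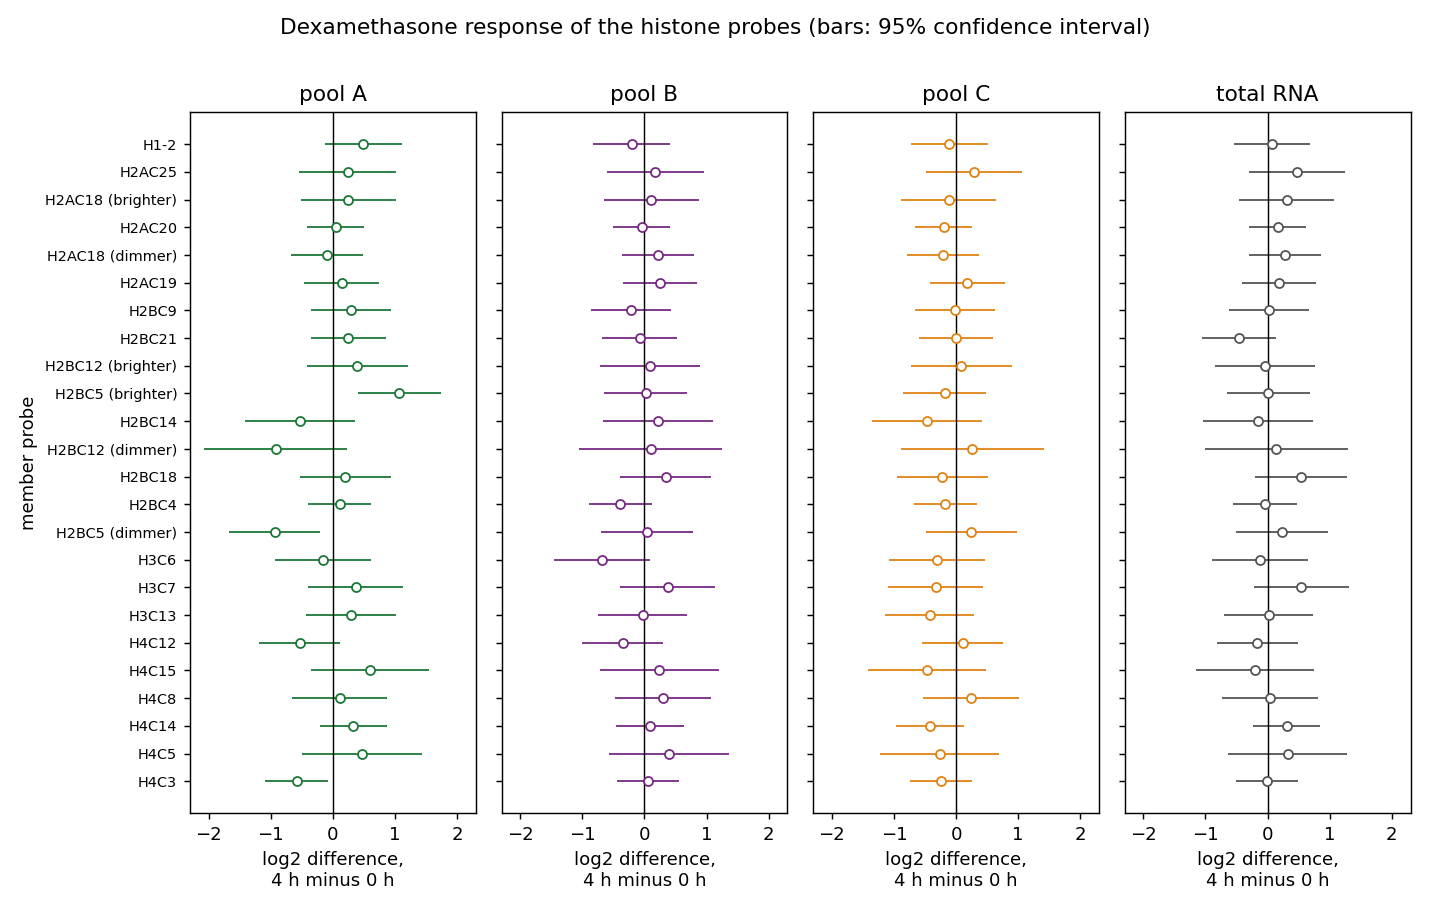
Log2 difference between 4 h and 0 h of dexamethasone (horizontal axes) for the 24 kept histone probes in pools A, B and C and total RNA, with bars for the 95% confidence interval from limma. Bars of 3 probes leave out 0, all in pool A (both H2BC5 probes, on opposite sides, and H4C3), and 0 probes passed the adjusted threshold.

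Replacement histones were counted in the same fit. Of 9 genes with a kept probe, of 11 listed, 2 were higher and 4 lower in pool A, 4 higher and 2 lower in pool B and 3 higher and 0 lower in pool C, each against total RNA. Their median differences were -0.26, 0.39 and 0.12. Of all kept probes 26.4% were higher and 33.4% lower in pool A, 25.4% and 29.2% in pool B, and 22.2% and 21.6% in pool C. The counts of the 4 lists below are to be read beside the same shares. MACROH2A1, which encodes a macroH2A variant, fell by 1.30 in pool A and by 1.05 in pool B and rose by 0.48 in pool C, and H2AZ1, an H2A.Z gene, fell by 0.84 in pool A. H2AJ rose by 0.91 and CENPA, the centromeric H3, by 0.84 in pool A, but under median scaling they stood at -0.05 and -0.11. In pool B they rose by 1.26 and 1.56. Against pool A, pool C was higher in 4 and lower in 2 of these genes, and in 38.3% and 28.7% of all kept probes. The linker histone gene H1-10 was the 1 gene of the histone lists that changed with dexamethasone. It rose by 1.21 in total RNA, 1.15 in pool A, 1.29 in pool B and 1.67 in pool C (standard error 0.19 each, adjusted p = 0.0466, 0.0241, 0.0336 and 0.00484), while H1-2 stood at 0.07 ± 0.29 in total RNA and -0.11 ± 0.29 in pool C.

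Genes that make and process histone mRNA were also counted. Of 12 of 13 listed genes for histone transcription and 3' end processing, 2 were higher and 5 lower in pool A, 4 higher and 6 lower in pool B, and 1 higher and 2 lower in pool C against total RNA. SLBP, the stem-loop binding protein, read 9.0, 9.37, 9.29 and 9.40 in pool A, 9.69, 10.18, 9.99 and 10.15 in pool B, 11.40, 11.64, 11.20 and 11.50 in pool C and 10.76, 10.53, 10.61 and 10.42 in total RNA. By mean level it was highest in pool C. Against total RNA SLBP fell by 1.32 in pool A and fell by 0.57 in pool B, and rose by 0.86 in pool C. LSM10, a subunit of the U7 snRNP that takes part in cutting the histone 3' end, read 8.37, 8.36, 8.56 and 8.19 in pool C and 12.26, 12.15, 12.62 and 12.37 in pool A, and fell by 3.98 in pool C. NPAT, the coactivator of histone genes, stood at -0.04 in pool A (adjusted p = 0.932), rose by 1.04 in pool B (adjusted p = 0.015) and stood at 0.28 in pool C (adjusted p = 0.525).

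Of the 14 listed genes for translation and decay of histone mRNA, 5 were higher and 4 lower in pool A, 8 higher and 2 lower in pool B and 4 higher and 3 lower in pool C against total RNA. UPF1, a helicase of mRNA decay, fell by 1.5 in pool A, fell by 1.42 in pool B and fell by 1.30 in pool C. LSM6, of the LSM ring that binds mRNA 3' ends, rose by 1.12 in pool A and 1.94 in pool B, and LSM3 fell by 2.25 in pool C. Of 13 of 14 listed histone chaperones 0 were higher and 9 lower in pool A, 1 higher and 8 lower in pool B and 2 higher and 3 lower in pool C, and SUPT16H, a subunit of FACT, fell by 2.36 in pool A, fell by 2.21 in pool B and fell by 2.10 in pool C. Of 19 of 20 listed genes for DNA replication and S phase 2 were higher and 14 lower in pool A, 2 higher and 15 lower in pool B and 6 higher and 8 lower in pool C. E2F1 rose by 2.54 in pool A, while CCNA2 fell by 1.40, MCM6 fell by 1.59 and PCNA fell by 1.61 there. The other S phase gene higher in pool A, CDT1, stood at -0.21 under median scaling. The medians of the S phase genes were -1.07 in pool A and -1.0 in pool B, against 0.85 and 1.18 for the histone members. None of these 4 lists held a gene that passed in the dexamethasone comparisons of total RNA, of any pool or of their average, with LSM6 in pool A the nearest, at -1.16 (adjusted p = 0.072).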

How the data were processed

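Probe intensities of 16 Illumina arrays and the detection p-value of each probe were used as deposited, not normalized per the file headers, and no scanner software is named. Each column names a time and a kind of RNA, so arrays were assigned to groups and not to replicate numbers. Intensities were background-corrected with normexp on the detection p-values (offset 16), quantile normalized and taken as log2 in R 4.3.3 with limma 3.58.1. The authors' deposited table of log2 values, normalized by an unstated method, served as an alternative, and its total RNA columns share 1 distribution that the pools do not, so they look normalized apart. Probes with a detection p-value under 0.01 on 2 or more arrays (17269 of 47323) entered 1 limma fit over 8 groups with 12 contrasts and Benjamini-Hochberg adjustment over all of them, and calls are at an adjusted p under 0.05. "At least" folds use, for a group with 0 arrays detected, the higher of the probe's own level and the lowest detected level of each array. Of 30121 annotated probes 30113 carry 1 gene symbol, updated through the RefSeq gene table. Named members are those called without overlapping arrays, up to 12 each way by size, the 3 smallest p where none was called, the 2 brightest per family and probes of a gene that disagree; from each list up to 4 genes per comparison by p, and SLBP, NPAT and H1-10. Called members with overlap, bounds and genes that change sign with scaling were named after their values were seen. Members and lists were chosen with earlier results of these data known. The fit was tested on simulated data. The number of arrays limits the precision. Alternatives were median scaling, no background correction, other filters, 1 probe per gene, the deposited value table, replicate blocks, subsets of arrays and leaving out each array.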

Additional observations from a re-analysis of the deposited data

How the results depend on the processing

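The 12 counts of called members were recomputed under each alternative, and all 6 dexamethasone counts stayed at 0. Against total RNA the counts were 15 in pool A, 18 in pool B and 4 in pool C. Median scaling gave 9 in pool A and 7 in pool C, and 17 in pool B. The pool C count was 2 without background correction, 1 with no filter on detection, 7 with a replicate block by column prefix, 1 without the 4 untreated X arrays (chosen after seeing the data), 1 in the 0 h arrays, 0 in the 4 h arrays and 7 with only the arrays of the groups compared. With detection on 8 or more arrays required, which leaves 15 members, the counts were 11 in pool B against total RNA, 5 between pools B and A and 11 between pools C and B. The deposited value table without a replicate block gave 5 between pools B and A and 9 between pools C and B, and the 0 h arrays gave 5 and 9. With a replicate block on the value table the count in pool A against total RNA was 17, and in pool C 4. Differences between replicates correlated at -0.05 to 0.43 over 28 pairs of groups, with a median of 0.26 and 25 pairs over 0.1. Differences between the X and N arrays correlated at -0.07 to 0.37, with a median of 0.21 and 24 pairs over 0.1. In most pairs of groups the arrays thus differed in part alike, so a pairing of arrays across groups is possible. The main fit holds no replicate block and leaves this shared part in the spread. Leaving out each array gave 13 to 15 in pool A, 17 to 19 in pool B and 1 to 4 in pool C against total RNA, 8 to 11 for pools B and A, 14 to 16 for pools C and A and 12 to 18 for pools C and B. The 96 differences of members named by rule were recomputed 1828 times in all, of which 1623 kept their direction and side of the threshold, 199 lost the call and 6 changed sign. Over all 24 members, called or not, median scaling changed the sign of 3 in pool A, 1 in pool B and 0 in pool C against total RNA, 3 between pools B and A, 4 between pools C and A and 1 between pools C and B. Under median scaling H1-2 in pool A against total RNA stood at -0.17, H2AC20 in pool C against pool A at 0.0096 and H2AC19 there at 0.18. Leaving out 1 array gave -1.02 to 0.12 for the dimmer H2BC5 probe in the response of pools minus total RNA, -0.74 to 0.037 for H4C12 with dexamethasone in pool B and -0.93 to 0.072 for H3C13 in pool C. The cause was not tested. The share of higher among all called probes was 18.6% under median scaling, against 44.2% under quantile scaling, in pool A against total RNA, 27.6% against 46.6% in pool B, 69.1% against 50.6% in pool C, 74.5% against 54.1% for pools B and A, 79.4% against 57.1% for pools C and A and 79% against 53.8% for pools C and B. Signal over background limits the members detected in 1 kind of RNA.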
